A study of Mus musculus with 8 samples.

Results

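The 10 genes of pericellular proteolysis described here across the 4 groups of the experiment were the matrix metalloproteinases Mmp2, Mmp3, Mmp13, Mmp14 and Mmp19, their tissue inhibitors Timp1, Timp2 and Timp3, and the plasminogen activators Plau and Plat. They form a fixed list that was matched by symbol, and all 10 were among the 12528 genes listed in the RNA sequencing table. The cells were immortalized mouse embryonic fibroblasts (MEFs) derived from WT mice and from Cav1KO littermates, which lack caveolin-1, the main structural protein of caveolae. Cells of each genotype were kept sparse for 24 h on polyacrylamide hydrogels with a fibronectin coat, which had a stiffness of 55 kPa (stiff) or 0.2 kPa (soft). Genotype and substrate define the 4 groups (WT stiff and soft, Cav1KO stiff and soft), each with 2 libraries. No other treatment separates them. The sources used here do not say how many independent MEF lines stood for a genotype, so genotype and cell line cannot be told apart, and the labels do not say whether the 2 libraries of a group came from separate cultures, so the p-values measure the spread between these libraries.

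Matrix metalloproteinases are zinc enzymes that are made as inactive precursors and cut collagens, laminins, fibronectin and other substrates outside the cell. Tissue inhibitors of metalloproteinases bind the active enzymes, and the membrane enzyme encoded by Mmp14 uses TIMP2 as an adaptor to activate the precursor of MMP2. The plasminogen activators uPA (Plau) and tPA (Plat) convert plasminogen to plasmin, which degrades fibrin and can activate several MMP precursors. Fibroblasts are a major source of these enzymes and inhibitors in connective tissue. RNA levels do not report the activity of the enzymes.

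The libraries held 17089836 to 19944952 reads on the listed genes, and a gene at 0 reads could still be present at 0.151 to 0.181 CPM (3 reads, a limit that covers counting error only). Values are CPM with TMM scaling, in which the read number of a gene is set against the scaled size of its library. The Cav1 level was 949.8 to 1157 CPM in WT and at most 0.411 CPM in Cav1KO libraries. Of 10 fibroblast markers 8 were listed (Thy1 and Lum were not), none of the 7 epithelial, 5 endothelial and 5 skeletal muscle markers was listed, and of 8 leukocyte markers only Cd68 was listed, at 0.552 to 4.55 CPM. Changes were tested with limma on log2(CPM + 1) over 12494 genes, and p-values were adjusted over these genes by the Benjamini-Hochberg method with a threshold of 0.05. On this scale the change of a gene with a low level is understated. Cd68 was lower on stiff gels in WT (log2 fold change -0.63, limma adjusted p = 0.00907) and Cav1KO cells (-1.29, limma adjusted p = 0.000182) and higher in Cav1KO cells on soft gels (1.02, limma adjusted p = 0.000592), the directions of Mmp2, Mmp3, Mmp13, Mmp14 and Mmp19, and its part in their results was not tested. The WT call of Cd68 was lost in 3 of 17 alternatives, among them the omission of the first WT stiff library (-0.57). In bulk RNA, fewer cells that express a gene and less RNA per cell cannot be told apart.

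Mmp3 and Mmp13 lie in a cluster of metalloproteinase genes on chromosome 9 and had the largest ratios between genotypes among the 10 genes, so the sequences upstream of their annotated starts are given for reference. They are the 250 bases before each start in RefSeq (GRCm38.p6), on the plus strand, and capitals mark matches to the AP-1 motif TGANTCA and to the TATA box TATAAA.
Mmp3, chr9:7445572-7445821: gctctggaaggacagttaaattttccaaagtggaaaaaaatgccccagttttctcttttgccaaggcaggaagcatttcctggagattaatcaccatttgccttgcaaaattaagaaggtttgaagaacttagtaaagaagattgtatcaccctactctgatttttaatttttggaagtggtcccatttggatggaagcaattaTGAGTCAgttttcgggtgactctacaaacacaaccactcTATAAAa
Mmp13, chr9:7272264-7272513: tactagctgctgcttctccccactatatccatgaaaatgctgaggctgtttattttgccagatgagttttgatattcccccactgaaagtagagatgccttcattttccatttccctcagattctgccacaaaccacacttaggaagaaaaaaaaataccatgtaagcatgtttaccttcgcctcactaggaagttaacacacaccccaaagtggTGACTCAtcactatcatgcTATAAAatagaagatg

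The AP-1 letters end 40 bases before the annotated start of Mmp3 and 29 bases before that of Mmp13. AP-1 is the dimeric factor formed by Fos and Jun proteins. Windows of this kind were found for 6 of the 10 genes (Mmp3, Mmp13, Mmp14, Timp1, Timp2 and Timp3, not Mmp2, Mmp19, Plau or Plat), and on both strands the AP-1 letters occurred in those of Mmp3 and Mmp13 only, against 6.75% of the 32851 RefSeq windows of this length. TATAAA was also found in these 2 windows and in 12.4% of all windows. The letters AGGAAG of the PEA3 motif of ETS factors were in 5 of the 6 windows (not in that of Timp2) and in 29.5% of all windows, and GGAATG, a TEAD motif, was in that of Timp1 and in 12.6% of all windows. These matches are descriptions of the sequence, and binding was not measured.

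On the stiff substrate, 8 of the 10 genes were lower than on the soft one in WT cells (limma adjusted p under 0.05), and 2 were higher, Timp1 and Plau. Thus 10 of the 10 passed the threshold, against 48.4% of all genes tested, of which 26.3% were lower and 22.1% higher. The same numbers passed in Cav1KO cells, 8 lower and 2 higher, where 56.1% of all genes tested passed, 28.2% lower and 27.9% higher. The median log2 fold change of the 10 genes (stiff minus soft) was -0.84 in WT and -0.98 in Cav1KO cells, against -0.02 over all genes in each genotype. The summed level of the 8 fibroblast markers moved in the same way. It was 8796 to 9035 CPM in WT stiff, 11180 to 11380 CPM in WT soft, 4397 to 5530 CPM in Cav1KO stiff and 13300 to 13340 CPM in Cav1KO soft libraries. Of these markers 6 were lower on the stiff substrate in WT and 8 in Cav1KO cells, and their part in the results was not tested. Col1a1 was not lower there in WT cells, with 2612 and 2515 CPM in stiff and 2035 and 2273 CPM in soft libraries. Per kilobase of exon, Timp1 was the most abundant of the 10 genes on WT stiff gels, and Mmp3 and Mmp13 were the lowest, at 3 and 2 reads that give no order between them. There the mean level per kilobase ran from 1160 CPM for Timp1, 270.1 for Timp2, 111 for Mmp2 and 91.7 for Timp3 down to 0.0456 for Mmp3 and 0.0213 for Mmp13.

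**Figure D1:**
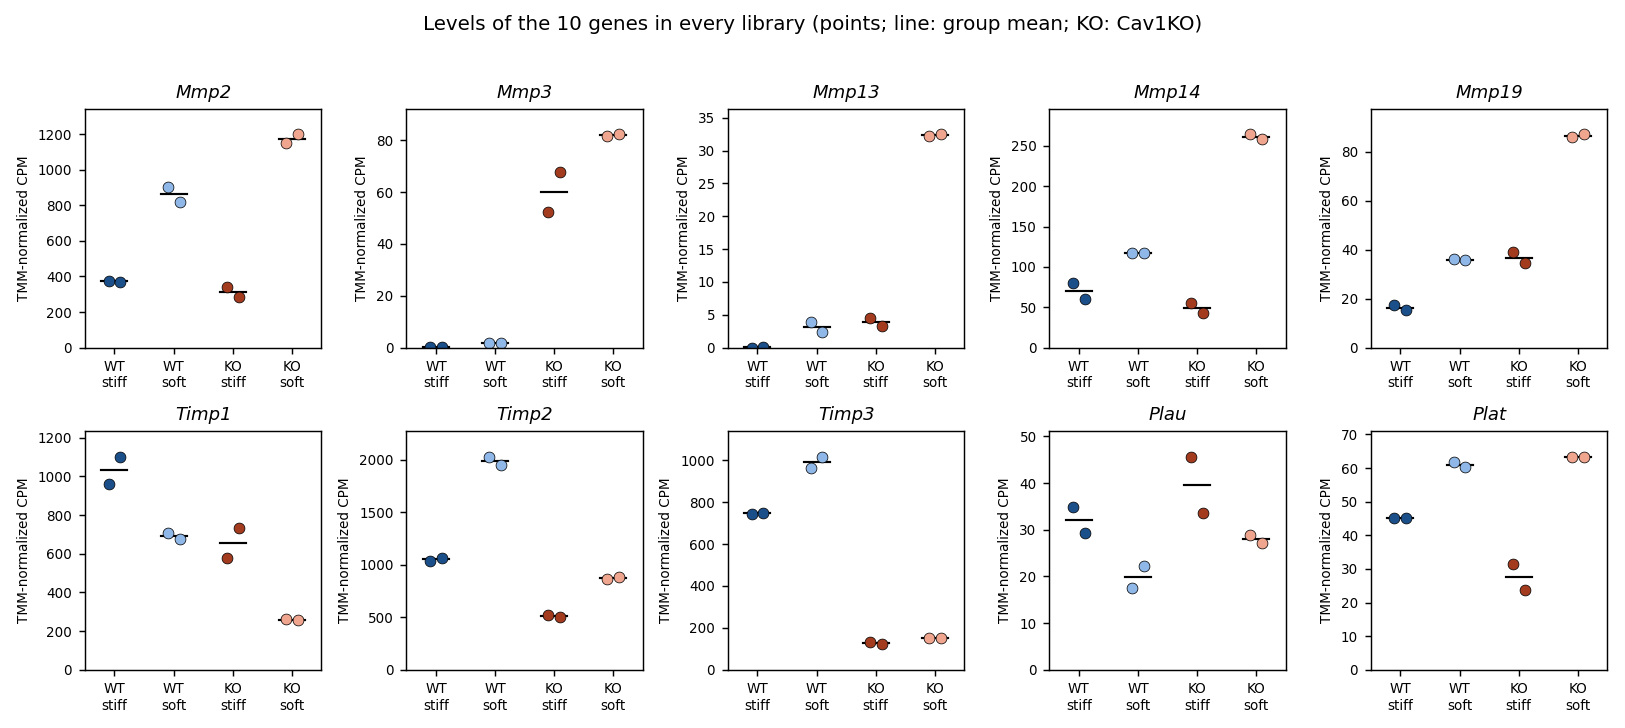
TMM-normalized CPM of the 10 genes (vertical axis, linear, 1 panel per gene) in each of the 8 libraries, with points for libraries and a line for the mean of each group of 2. In 4 of the 30 pairs of neighbouring group means the libraries overlap, and the 5 MMP genes are highest in the Cav1KO soft libraries.

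Mmp2 encodes gelatinase A, which cuts denatured collagen and basement membrane collagen. Its locus (ENSMUSG00000031740) spans chromosome 8 from 92827291 to 92853420 in GRCm38. Its level was 376 and 369 CPM in WT stiff libraries, 904 and 821 in WT soft, 339 and 282 in Cav1KO stiff, and 1149.5 and 1199 in Cav1KO soft. The soft libraries were above all stiff ones, and no groups overlapped. The mean on the soft substrate was 2.31 times that on the stiff one in WT cells (log2 fold change stiff minus soft -1.21, SE 0.10, limma adjusted p = 6.55e-05). In Cav1KO cells it was 3.78 times as high (-1.92, SE 0.10, limma adjusted p = 9.12e-06). The difference between these effects was tested as an interaction, WT effect minus Cav1KO effect, and was 0.72 (SE 0.14, limma adjusted p = 0.0237). It did not pass the threshold without the first WT stiff library (0.70), the first (0.79) or second (0.65) WT soft library, or the first (0.75) or second (0.69) Cav1KO soft library.

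Between genotypes Mmp2 changed sign with the substrate. Cav1KO cells were 0.45 higher on the log2 scale on soft gels (limma adjusted p = 0.00463) and 0.27 lower on stiff gels (log2 fold change -0.27, limma adjusted p = 0.0447). The call on stiff gels was lost in 10 of 18 alternatives, with adjusted p-values from 0.00693 to 0.261 over all of them. Among these were edgeR on the recovered reads, median centring and the omission of any library but the first Cav1KO stiff one, and without the second Cav1KO stiff library the log2 fold change was -0.14.

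Mmp14 encodes the membrane-type enzyme MT1-MMP, a collagenase and the activator of MMP2. The gene (ENSMUSG00000000957) is on chromosome 14 from 54431612 to 54445364. Its level was 79.9 and 59.9 CPM in WT stiff, 118 and 118 in WT soft, 54.8 and 43.2 in Cav1KO stiff, and 264 and 259 in Cav1KO soft libraries. The Cav1KO soft libraries stood above all others, and no groups overlapped. The mean was 1.68 times as high on soft as on stiff gels in WT cells (log2 fold change -0.76, SE 0.14, limma adjusted p = 0.00289) and 5.34 times as high in Cav1KO cells (-2.40, SE 0.14, limma adjusted p = 1.33e-05).

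The stiffness effect on Mmp14 differed between genotypes by 1.64 (SE 0.20, limma adjusted p = 0.00540), and it passed in all 18 alternatives with values from 1.44 to 1.85. In the interaction 5 of the 10 genes passed the threshold, against 10.5% of all genes tested, 3 with a higher (4.47% of all genes) and 2 with a lower value (6.0%). These were Mmp2, Mmp14 and Plat, with a larger fall on stiff gels in Cav1KO cells, Timp1, with a larger rise there, and Mmp3. The median interaction was 0.16 for the 10 genes and -0.07 for all genes. On soft gels Cav1KO cells had 2.22 times the Mmp14 level of WT cells (log2 fold change 1.14, limma adjusted p = 0.000226). On stiff gels they had 0.70 times that level (-0.50, limma adjusted p = 0.0184). The latter call was lost without the first WT stiff library (-0.30) or without the second Cav1KO stiff library (-0.33).

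**Figure D2:**
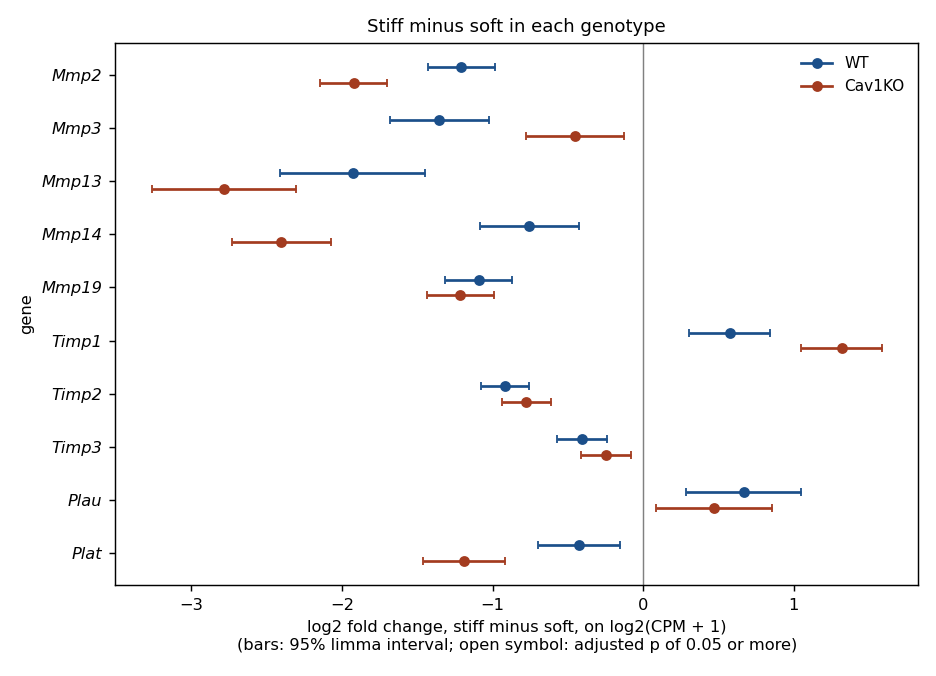
Log2 fold change of each gene, stiff minus soft, on log2(CPM + 1), in WT (blue) and Cav1KO cells (red), with points for the limma estimate and bars for its 95% interval. Only Timp1 and Plau lie to the right of 0, and the estimates for Mmp14 are -0.76 in WT and -2.40 in Cav1KO cells.

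Mmp3 encodes stromelysin-1, which cuts proteoglycans, laminin and fibronectin and activates other MMP precursors. Its position is chromosome 9 from 7445822 to 7455975 (ENSMUSG00000043613). The WT stiff libraries held 1 and 2 reads (0.0502 and 0.114 CPM), which is within the limit of a count of 0, and the WT soft libraries 29 and 33 reads (1.75 and 1.77 CPM). The Cav1KO libraries held 888 and 1235 reads on stiff gels (52.3 and 67.7 CPM) and 1558 and 1599 reads on soft gels (81.5 and 82.2 CPM). All Cav1KO libraries were thus above all WT libraries, and no groups overlapped. From the summed reads, Cav1KO cells had 46.4 times the WT level on soft gels (95% counting interval 36.1 to 60.7) and 752 times on stiff gels (257 to 3650), where the WT level rests on 3 reads. Both genotype effects passed the threshold (limma adjusted p = 4.98e-08 on soft and 3.00e-08 on stiff gels). Of the 60-nt windows of the Mmp3 transcript 6.32% also occur in another annotated gene.

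In WT cells the Mmp3 level on stiff gels was 0.0454 of that on soft gels by reads (95% counting interval 0.00912 to 0.139, limma adjusted p = 0.000180). In Cav1KO cells the mean on soft gels was 1.36 times that on stiff gels (log2 fold change -0.45, limma adjusted p = 0.0249). The Cav1KO call was lost in 4 of 18 alternatives, and the adjusted p ranged from 0.00921 to 0.162. The log2 fold change was -0.27 without the first Cav1KO stiff library, -0.46 without the first and -0.45 without the second Cav1KO soft library, and -0.37 under median centring, and none of these 4 passed. The interaction of Mmp3 was -0.90 with a pseudocount of 1 CPM (limma adjusted p = 0.0350) but 0.02 with a pseudocount of 5 CPM (adjusted p = 0.951) and -3.90 with edgeR on the recovered reads, with adjusted p-values from 0.000301 to 0.951 over the alternatives. Its size therefore depended on the pseudocount.

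Mmp13 encodes collagenase-3, the main interstitial collagenase of rodents, which cuts fibrillar collagen. It lies on chromosome 9 from 7272514 to 7283331 (ENSMUSG00000050578). The WT stiff libraries held 0 and 2 reads, again within the limit of a count of 0, and the WT soft libraries 64 and 43 reads (3.87 and 2.31 CPM). The Cav1KO stiff libraries had 4.53 and 3.23 CPM and the Cav1KO soft libraries 32.2 and 32.5 CPM. The WT soft and Cav1KO stiff libraries overlapped, and the Cav1KO soft libraries were above all others. In Cav1KO cells the mean on soft gels was 8.32 times that on stiff gels (log2 fold change -2.78, SE 0.21, limma adjusted p = 2.58e-05).

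In WT cells the level of Mmp13 on stiff gels was 0.0176 of that on soft gels by reads (95% counting interval 0.0021 to 0.065, limma adjusted p = 0.000202). Cav1KO cells had 10.6 times the WT level on soft gels by reads (8.71 to 13.1, limma adjusted p = 6.94e-06). On stiff gels the ratio was 72.3 (19.6 to 603, limma adjusted p = 5.04e-05), where the WT level rests on 2 reads. The interaction of Mmp13 was 0.86 (limma adjusted p = 0.0878) and turned to -2.61 with edgeR and -2.77 with DESeq2 on the recovered reads, so that no direction of it is given here.

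The MMP cluster on chromosome 9 (7272514 to 7699585) holds 10 annotated MMP genes, of which 6 were listed. The 4 listed beside Mmp3 and Mmp13 were examined after their values were seen. Mmp10 (stromelysin-2) had 0 and 0.114 CPM in WT stiff, 0.121 and 0 in WT soft, 2.53 and 4.60 in Cav1KO stiff, and 5.70 and 3.81 in Cav1KO soft libraries. Mmp8 (neutrophil collagenase) was listed at 0 reads in the 4 WT libraries, against 1.06 and 0.712 in Cav1KO stiff and 1.36 and 1.39 in Cav1KO soft. Mmp27 was also at 0 reads in the 4 WT libraries, against 0.824 and 0.767 in Cav1KO stiff and 1.93 and 1.44 in Cav1KO soft. These 3 genes were higher in Cav1KO cells on both substrates, with limma adjusted p-values on soft gels of 6.79e-05, 0.000200 and 9.68e-05. Mmp12 (macrophage elastase) passed on soft gels (limma adjusted p = 0.000438), with 0.121 and 0.484 CPM in WT and 1.88 and 2.52 CPM in Cav1KO libraries, and did not pass on stiff gels (0.440). All 4 were at the lower end of detection in these cells. They met the filter of 1 CPM in 2 or more libraries only through Cav1KO libraries. Their p-values between genotypes are therefore given as a description and are no support for a difference.

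**Figure D3:**
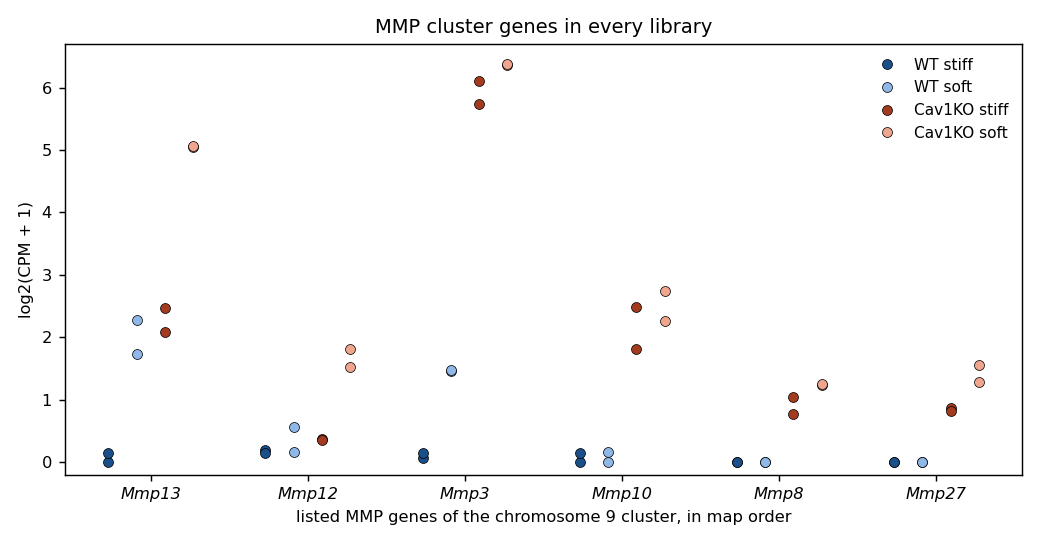
Log2(CPM + 1) of the 6 listed MMP genes of the chromosome 9 cluster in map order (horizontal axis), with 1 point per library and a colour per group. Mmp3 is above Mmp13 in all Cav1KO libraries, and Mmp8 and Mmp27 sit at 0 in all 4 WT libraries.

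Mmp19 encodes a broadly expressed MMP that cuts basement membrane components. The gene is found on chromosome 10 from 128790910 to 128800824 (ENSMUSG00000025355). It had 17.3 and 15.3 CPM in WT stiff, 36.0 and 35.6 in WT soft, 39.1 and 34.4 in Cav1KO stiff, and 85.9 and 87.0 in Cav1KO soft libraries. The WT soft and Cav1KO stiff libraries overlapped, with WT stiff below and Cav1KO soft above them. Soft gels gave 2.20 times the stiff level in WT (log2 fold change -1.09, limma adjusted p = 8.80e-05), and in Cav1KO MEFs it was 2.35 times as high (limma adjusted p = 3.10e-05). The difference between these effects was 0.12 (95% interval -0.19 to 0.44, limma adjusted p = 0.541). Cav1KO cells had 2.25 times the WT level on stiff (limma adjusted p = 2.71e-05) and 2.41 times on soft gels (limma adjusted p = 1.41e-05). Of the exonic bases of Mmp19, 22.3% (789) overlap Tmem198b on the opposite strand. Whether the counting used strand is not given in the sources used here. Tmem198b itself had 22.45 and 26.16 CPM in WT stiff, 27.9 and 27.0 in WT soft, 15.9 and 17.1 in Cav1KO stiff, and 19.45 and 18.1 in Cav1KO soft libraries. Its part in the Mmp19 values was not tested.

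All 3 inhibitors were lower in Cav1KO than in WT cells on both substrates. On stiff gels 9 of the 10 genes differed between genotypes, 3 higher in Cav1KO cells (Mmp3, Mmp13 and Mmp19) and 6 lower, against 51.7% of all genes tested (25.0% higher and 26.6% lower). On soft gels 9 differed, with 5 MMPs and Plau higher and the 3 TIMPs lower, against 54.0% of all genes (24.1% higher and 29.9% lower). The median log2 fold change (Cav1KO minus WT) of the 10 genes was -0.39 on stiff and 0.46 on soft gels, against -0.03 over all genes on each substrate.

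Timp3 encodes the inhibitor that stays bound to the extracellular matrix and also blocks several ADAM and ADAMTS proteases. Chromosome 10 holds it from 86300372 to 86349506 (ENSMUSG00000020044). Its level was 744 and 750.5 CPM in WT stiff, 964 and 1018 in WT soft, 135 and 121 in Cav1KO stiff, and 153 and 151 in Cav1KO soft libraries. Every WT library was above every Cav1KO library, and no groups overlapped. WT cells had 5.84 times the Cav1KO level on stiff gels (log2 fold change Cav1KO minus WT -2.54, SE 0.07, limma adjusted p = 4.56e-08). On soft gels they had 6.53 times that level (-2.70, SE 0.07, limma adjusted p = 3.53e-08). Of the exonic bases of Timp3, 21.3% overlap Syn3 on the opposite strand, a gene that is not listed.

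Stiffness moved Timp3 less than genotype did, with a soft level 1.33 times the stiff one in WT (log2 fold change -0.41, limma adjusted p = 0.00221), and in Cav1KO MEFs it was 1.19 times as high (-0.25, limma adjusted p = 0.0194). The Cav1KO call was lost in 5 of 18 alternatives, with adjusted p-values from 0.00418 to 0.113. These were median centring (-0.16), the fit without a mean-variance trend (-0.25), and the omission of the second Cav1KO stiff (-0.17), first Cav1KO soft (-0.24) or second Cav1KO soft library (-0.26). The interaction was -0.16 (95% interval -0.40 to 0.08, limma adjusted p = 0.293).

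Timp2 encodes the inhibitor that also takes part in the activation of MMP2. The gene (ENSMUSG00000017466) spans chromosome 11 from 118301069 to 118355740. It had 1038 and 1066 CPM in WT stiff, 2030.0 and 1946 in WT soft, 520.2 and 499 in Cav1KO stiff, and 862 and 885 in Cav1KO soft libraries. No groups overlapped, and each Cav1KO library was below each WT library. The soft level was 1.89 times the stiff one in WT (log2 fold change -0.92, limma adjusted p = 5.84e-05), and in Cav1KO MEFs it was 1.71 times as high (-0.78, limma adjusted p = 5.42e-05). The interaction was -0.14 (95% interval -0.37 to 0.09, limma adjusted p = 0.337). WT cells had 2.06 times the Cav1KO level on stiff (limma adjusted p = 6.54e-06) and 2.28 times on soft gels (limma adjusted p = 2.97e-06).

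Timp1 encodes a secreted inhibitor of most soluble MMPs and was the only inhibitor that was higher on stiff gels. Its position is chromosome X from 20870166 to 20874735 (ENSMUSG00000001131), within an intron of Syn1 on the opposite strand, and the 2 genes share no exonic base. It had 958 and 1102 CPM in WT stiff, 706 and 674 in WT soft, 575 and 732 in Cav1KO stiff, and 261 and 258 in Cav1KO soft libraries. The WT soft libraries lay between the Cav1KO stiff ones, and the Cav1KO soft libraries were below all others. The stiff level was 1.49 times the soft one in WT (log2 fold change 0.57, SE 0.12, limma adjusted p = 0.00408), and in Cav1KO MEFs it was 2.52 times as high (1.32, limma adjusted p = 4.70e-05). WT cells had 1.58 times the Cav1KO level on stiff (limma adjusted p = 0.00167) and 2.66 times on soft gels (limma adjusted p = 2.10e-05).

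The interaction of Timp1 was -0.74 (SE 0.17, limma adjusted p = 0.0340). It was lost in 7 of 18 alternatives, with adjusted p-values from 0.000691 to 0.141. These were the fit without a mean-variance trend (-0.74) and the omission of the first WT stiff (-0.64), first (-0.71) or second (-0.78) WT soft, second Cav1KO stiff (-0.57), and first (-0.75) or second (-0.73) Cav1KO soft library.

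**Figure D4:**
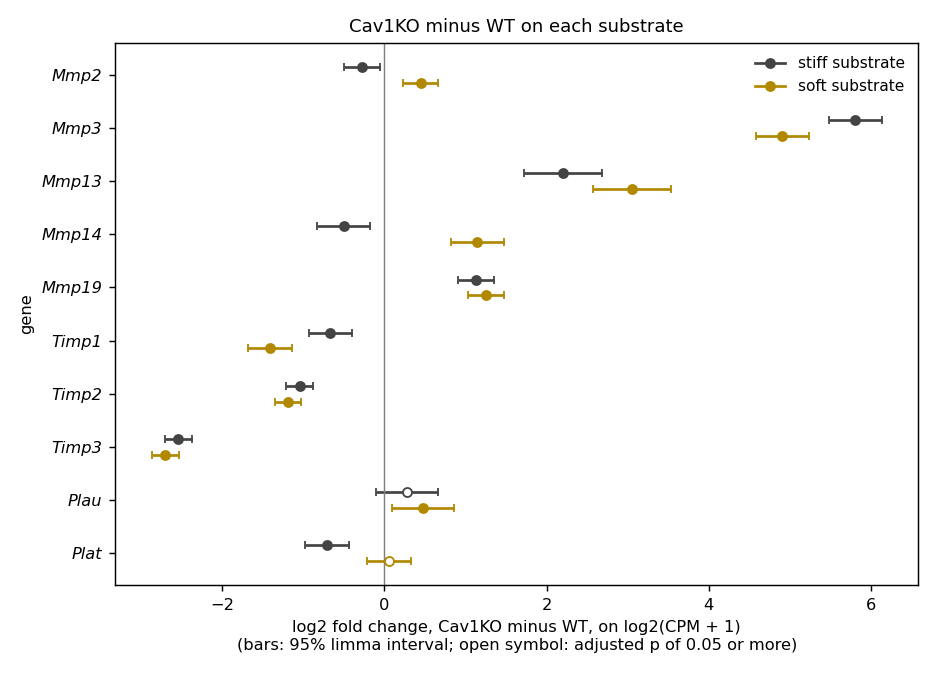
Log2 fold change of each gene, Cav1KO minus WT, on log2(CPM + 1), on stiff (grey) and soft gels (yellow), with points for the limma estimate and bars for its 95% interval; open points have an adjusted p of 0.05 or more. Mmp3 is at 5.81 on stiff and 4.91 on soft gels and Timp3 at -2.54 and -2.70, while Mmp2 and Mmp14 lie on opposite sides of 0 on the 2 substrates.

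Plau, which encodes the urokinase-type activator that acts at the cell surface, was the only protease among the 10 genes that was higher on stiff gels. It lies on chromosome 14 from 20836660 to 20843385 (ENSMUSG00000021822). It had 34.9 and 29.4 CPM in WT stiff, 17.6 and 22.2 in WT soft, 45.7 and 33.5 in Cav1KO stiff, and 28.9 and 27.1 in Cav1KO soft libraries. The stiff libraries of both genotypes overlapped, and all of them were above all soft ones. The stiff level was 1.61 times the soft one in WT (log2 fold change 0.67, SE 0.17, limma adjusted p = 0.0110), and in Cav1KO MEFs it was 1.42 times as high (0.47, SE 0.17, limma adjusted p = 0.0400). The interaction was 0.20 (95% interval -0.35 to 0.74, limma adjusted p = 0.577).

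The calls for Plau rested on few libraries. In WT cells the call was lost without the first WT stiff (0.55) or first WT soft library (0.51), with adjusted p-values from 0.00123 to 0.0921 over the 18 alternatives. In Cav1KO cells it was lost without the first Cav1KO stiff (0.25), first Cav1KO soft (0.52) or second Cav1KO soft library (0.42) and in the fit without a mean-variance trend (0.47), with adjusted p-values from 0.00903 to 0.220. Cav1KO cells were higher on soft gels (log2 fold change 0.48, limma adjusted p = 0.0387). This call was lost without the first WT soft (0.32), first Cav1KO soft (0.43) or second Cav1KO soft library (0.53) and in the fit without the trend (0.48), with adjusted p-values from 0.0145 to 0.230. On stiff gels the difference was 0.28 (95% interval -0.10 to 0.67, limma adjusted p = 0.189), and it passed in 1 of 18 alternatives, without the second Cav1KO stiff library (0.50).

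Plat encodes the tissue-type activator, which is known mainly for the lysis of fibrin clots. It lies on chromosome 8 from 22757727 to 22782844 (ENSMUSG00000031538). It had 45.1 and 45.0 CPM in WT stiff, 61.7 and 60.2 in WT soft, 31.3 and 23.7 in Cav1KO stiff, and 63.4 and 63.4 in Cav1KO soft libraries. The soft libraries of both genotypes were close together, and the Cav1KO stiff libraries were below all others. The soft level was 1.35 times the stiff one in WT (log2 fold change -0.43, SE 0.12, limma adjusted p = 0.0178), and in Cav1KO MEFs it was 2.31 times as high (-1.19, limma adjusted p = 8.25e-05). Cav1KO cells were lower on stiff gels (log2 fold change -0.71, limma adjusted p = 0.00133). On soft gels the difference was 0.06 (95% interval -0.22 to 0.33, limma adjusted p = 0.717).

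The WT stiffness call for Plat was lost without any 1 of the 4 WT libraries, with values from -0.45 to -0.41 and adjusted p-values from 0.00172 to 0.0920 over the alternatives. The interaction was 0.76 (SE 0.17, limma adjusted p = 0.0336). It was lost in 7 of 18 alternatives, namely the fit without a mean-variance trend (0.76) and the omission of the first (0.76) or second (0.76) WT stiff, first (0.78) or second (0.74) WT soft, or first (0.76) or second (0.76) Cav1KO soft library. Its adjusted p ranged from 0.00376 to 0.141.

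The other genes of the plasminogen system were taken from a list of 11, of which 8 were tested and Plg, the gene of plasminogen itself, was not listed. On stiff gels 2 of the 8 were higher and 4 lower in WT cells, against 22.1% and 26.3% of all genes tested. In Cav1KO cells 3 were higher and 2 lower, against 27.9% and 28.2% of all genes. Between genotypes 5 were lower in Cav1KO cells on stiff (26.6% of all genes) and 6 on soft gels (29.9%), and 2 were higher on each (25.0% and 24.1% of all genes). Plaur, the gene of the receptor that holds uPA at the cell surface, had 69.3 and 67.3 CPM in WT stiff, 44.8 and 44.7 in WT soft, 30.1 and 29.3 in Cav1KO stiff, and 15.7 and 18.7 in Cav1KO soft libraries. It was higher on stiff gels in WT (log2 fold change 0.60, limma adjusted p = 0.00138) and Cav1KO cells (0.76, limma adjusted p = 0.000302). No groups overlapped, and between genotypes it was lower in Cav1KO cells by a log2 fold change of -1.17 on stiff (limma adjusted p = 2.24e-05) and -1.33 on soft gels (limma adjusted p = 1.05e-05).

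Serpinb2, the gene of the inhibitor PAI-2, had 14.4 and 16.8 CPM in WT stiff, 6.77 and 6.56 in WT soft, 1.76 and 2.47 in Cav1KO stiff, and 0.418 and 0.463 in Cav1KO soft libraries. Its level was higher on stiff gels in WT (log2 fold change 1.11, limma adjusted p = 0.000684) and likewise in Cav1KO MEFs (1.10, limma adjusted p = 0.000516). Serpine2, the gene of protease nexin-1, was named after its values were seen and moved the other way. It was lower on stiff gels in WT (log2 fold change -1.27, limma adjusted p = 3.67e-05) and Cav1KO cells (-0.81, limma adjusted p = 6.78e-05). S100a10, which encodes a plasminogen-binding partner of annexin A2, was lower in Cav1KO cells on stiff (-0.78, limma adjusted p = 0.000384) and soft gels (-1.33, limma adjusted p = 1.60e-05). Hgf, which encodes hepatocyte growth factor, a ligand made as an inactive precursor that serine proteases cut, had 24.0 and 22.7 CPM in WT stiff, 34.4 and 30.5 in WT soft, 64.1 and 54.7 in Cav1KO stiff, and 69.1 and 60.9 in Cav1KO soft libraries. It was higher in Cav1KO cells on stiff (1.31, limma adjusted p = 2.63e-05) and soft gels (0.98, limma adjusted p = 0.000134), and each Cav1KO library was above each WT library.

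**Figure D5:**
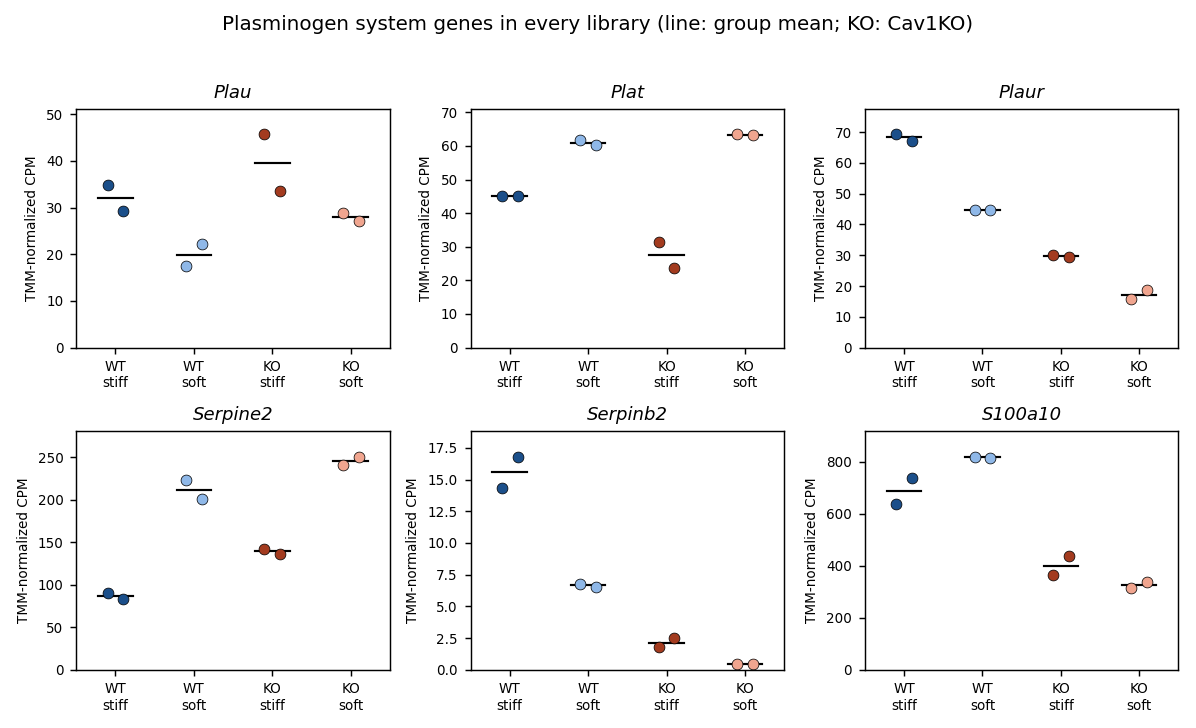
TMM-normalized CPM (vertical axis, linear) of Plau, Plat, the receptor gene Plaur, the inhibitor genes Serpine2 and Serpinb2, and S100a10 in each library, with points for libraries and a line for each group mean of 2. Plaur and Serpinb2 descend from WT stiff over WT soft and Cav1KO stiff to Cav1KO soft, whereas Plat and Serpine2 are higher on soft gels in each genotype.

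Of 18 further MMP genes 8 were tested. On stiff gels 3 of them were lower in WT and 5 in Cav1KO cells and the rest did not pass, against 48.4% and 56.1% of all genes called in either direction, 26.3% and 28.2% as lower. On soft gels 5 were higher and 1 lower in Cav1KO than in WT cells, against 24.1% and 29.9% of all genes. Of the former, Mmp8, Mmp10, Mmp12 and Mmp27 met the filter on low values only through Cav1KO libraries. Mmp9, the gene of gelatinase B, had 1.31 and 1.08 CPM in WT stiff, 2.48 and 1.88 in WT soft, 4.65 and 3.67 in Cav1KO stiff, and 24.3 and 23.2 in Cav1KO soft libraries. On soft gels it was higher in Cav1KO cells by 2.97 on the log2 scale (limma adjusted p = 1.66e-06). Mmp11 (stromelysin-3) was lower on stiff gels in WT (log2 fold change -1.15, limma adjusted p = 9.73e-05) and Cav1KO cells (-1.05, limma adjusted p = 8.19e-05), and so was Mmp28 (epilysin) by -1.57 and -1.29. Mmp16, the gene of another membrane-type MMP, was the reverse of the cluster genes between genotypes. It had 17.8 to 20.9 CPM in the 4 WT libraries and 0.353 to 0.732 CPM in the 4 Cav1KO libraries (log2 fold change -3.76 on stiff gels, limma adjusted p = 3.68e-07). Mmp16 in turn met that filter only through WT libraries.

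The genes whose levels followed each member most closely were sought among 10064 genes with a mean of at least 5 CPM, by Pearson's r of log2(CPM + 1) over the 8 libraries. With 4 groups of 2 libraries such values are mostly a likeness of 4 group means, and they are given as a description. Mmp2 was most like Tgfbi (r = 0.998), the gene of a matrix adhesion protein. Mmp14 was most like Sh3pxd2b (0.994), which encodes the podosome scaffold Tks4, followed by Stat3 (0.993). Mmp3 was most like Slc9a8 (0.998), Mmp13 like Cxx1c (0.998) and Mmp19 like Gpnmb (0.998). Timp1 was most like Plaa (0.998), Timp2 like Sec23a (0.9997) and Timp3 like Gnpda2 (0.999), with Igfbp4 next (0.999). Plau was most like Immt (0.991) and Plat like Vdr (0.992), the vitamin D receptor gene.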

How the data were processed

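Poly(A)-selected RNA was read as single 60-nt reads, and the authors deposited a table of TMM-normalized CPM. The submitters' processing notes name CASAVA 1.8.2, cutadapt, RSEM 1.2.3 and GRCm38. The deposited signal gives the reads of each gene relative to a scaled library size. Within 0.02 reads, 100% of the values were whole multiples of 1 read, so reads were recovered. Groups follow the labelled genotype and substrate. The 12494 genes that reached 1 CPM in 2 or more libraries entered limma 3.58.1 (R 4.3.3) as log2(CPM + 1), in 1 fit of 4 group means with a mean-variance trend and 4 residual degrees of freedom (two-sided tests). Coordinates and exon lengths are from GENCODE M21 (GRCm38), matched by gene identifier.

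The 10 members, the gene lists and the motifs were chosen with earlier results of these data known. From each list (other MMPs, MMP regulators, plasminogen system, ADAM, ADAMTS, AP-1 and ETS regulators), at most the 4 genes with the largest called change and a mean of at least 5 CPM are named, and others are named as chosen after their values were seen. Cell type markers (fibroblast, leukocyte, epithelial, endothelial, skeletal muscle) were inspected by their levels. 1 gene of the plasminogen system is not reported here.

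The alternatives were pseudocounts of 0.5 and 5 CPM, no filter or a filter of 5 CPM, no trend, a replicate block, median centring, quantile normalization, edgeR 4.0.16 and DESeq2 1.42.0 on the recovered reads, and the omission of each of the 8 libraries in turn. edgeR's quasi-likelihood test called from 7.22% of all genes (interaction) to 55.2% (stiffness in Cav1KO). The limma fit was tested on simulated counts, for the contrast of stiff and soft gels in WT cells only. Protein sequences were not used here.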

Additional observations from a re-analysis of the deposited data

Results flagged for a closer look

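The stiffness effect differed between WT and Cav1KO cells by the interaction test (WT effect minus Cav1KO effect on log2(CPM + 1), limma adjusted p under 0.05) for 5 of the 10 members. Of all genes tested 10.5% passed it. The difference was 1.645 for Mmp14 (adjusted p = 0.00540), 0.7163 for Mmp2 (0.0237), 0.7624 for Plat (0.0336), -0.7435 for Timp1 (0.0340) and -0.899 for Mmp3 (0.0350), and limma was used for each. Only that of Mmp14 passed with every library left out in turn. That of Mmp3 rests on WT stiff libraries with 3 reads in all.

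Among the other genes named by the rule, the same test was passed by the gelatinase gene Mmp9 (1.739, limma adjusted p = 0.00644), the endocytic receptor gene Lrp1 (1.604, 0.0112), the thrombospondin genes Thbs1 (1.337, 0.0248) and Thbs2 (0.8345, 0.0261), the protease genes Adam12 (1.477, 0.0323), Adam19 (0.8701, 0.0300) and Adamts9 (1.747, 0.0368), and Adam23 (1.627, 0.00438) and Adamts3 (-1.337, 0.0174). Mmp12 (1.123, limma adjusted p = 0.0373) and Serpine2 (-0.4607, 0.0410), named after their values were seen, also passed. Adam23 had at most 2 reads in each WT library and Adamts3 at most 2 reads in each Cav1KO library, so that their values depend on the pseudocount. Each met the filter on low values only through the other genotype. With 1 library left out, the limma adjusted p reached 0.0506 for Mmp9 (without the first Cav1KO soft library), 0.0732 for Lrp1, 0.116 for Thbs1, 0.127 for Thbs2, 0.121 for Adam12, 0.136 for Adam19, 0.141 for Adamts9, 0.0935 for Adamts3, 0.124 for Mmp12 and 0.168 for Serpine2. It stayed at 0.0414 or less for Adam23. The calls of Lrp1, Thbs1, Thbs2, Adam12, Adam19 and Adamts9 were each lost without the first WT stiff, the first WT soft, or either Cav1KO soft library. Those of Thbs1, Thbs2, Adam12, Adam19 and Adamts9 were also lost without the second WT soft library, and those of Adam12 and Adam19 without the second Cav1KO stiff one. The call of Adamts3 was lost without the first WT stiff or either Cav1KO soft library, and also with edgeR and with DESeq2 on the recovered reads. Those of Adamts9 and Mmp12 were lost with edgeR, and those of Thbs2, Adamts9 and Serpine2 in the fit without a mean-variance trend. That of Mmp12 was also lost without either WT stiff, the first WT soft or the second Cav1KO stiff library. Without either Cav1KO soft library Mmp12 did not pass the filter on low values and was not tested. The call of Serpine2 held only with all libraries or without the first Cav1KO stiff one.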

How the results depend on the processing

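Of 900 values for the 10 members under 18 alternatives, 831 kept their direction and their side of the threshold, 61 lost their call, 3 gained one and 5 changed direction. The latter were all interactions. That of Mmp3 was 0.0167 with a pseudocount of 5 CPM, that of Mmp13 was -2.61 with edgeR and -2.77 with DESeq2, that of Timp2 was 0.0592 with quantile normalization, and that of Plau was between -0.0214 and 0.413 with 1 library left out. Of 1756 values for other named genes 132 lost their call and 2 changed direction. For Adam23, which has at most 2 reads in each WT library, the interaction was -1.47 with edgeR and -0.77 with DESeq2. The members called in the interaction numbered 5, against 3 without the mean-variance trend and from 1 to 6 with 1 library left out. Over all genes the share called in the interaction was 10.5%, against 5.64% without the trend and from 0.744% to 27.7% with 1 library left out (27.7% without the first and 3.03% without the second Cav1KO stiff library). In WT stiffness it was 30.9% without the first WT soft library, against 48.4%. The cause of these changes was not tested.

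With the replicate number as a block, 10, 10, 5, 9 and 9 members were called for stiffness in WT, stiffness in Cav1KO, the interaction, genotype on stiff and genotype on soft, as without it. The shares of all genes called with the block were 47.9%, 55.8%, 10.6%, 51.6% and 54.1% in the same order. The correlations of deviations between groups ran from -0.37 to 0.42 over 6 pairs. Whether the replicate numbers pair the samples cannot be told from these values. With 2 libraries a group, low genes such as Mmp3 and Mmp13 on WT stiff gels are limited by depth.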

Other observations

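Of all genes tested 26.3% were lower and 22.1% higher on stiff gels in WT cells, and 28.2% lower and 27.9% higher in Cav1KO cells. The ADAM and ADAMTS families include proteases that shed membrane proteins or cut proteoglycans. Of 9 tested ADAM genes 4 were lower and 1 higher in WT, with 4 not called, and 8 lower in Cav1KO cells. The 15 tested genes of the ADAMTS list include the ADAMTS-like genes Adamtsl3, Adamtsl4 and Adamtsl5. Of the 15, 6 were lower and 1 (Adamtsl3) higher in WT, with 8 not called, and 10 lower in Cav1KO cells. Adam10, a major sheddase, had 135 and 133 CPM in WT stiff, 191 and 197 in WT soft, 158 and 150.2 in Cav1KO stiff, and 283 and 277 in Cav1KO soft libraries (stiff minus soft -0.53 and -0.86, limma adjusted p = 0.000318 and 2.58e-05). Adamts5, an aggrecanase, differed by genotype, with 4.62 to 5.98 CPM in the 4 WT and 27.0 to 39.0 CPM in the 4 Cav1KO libraries (limma adjusted p = 1.28e-05 on stiff and 8.69e-06 on soft gels). Adamts7 was lower on stiff gels in WT (-1.60, limma adjusted p = 0.000232) and Cav1KO cells (-1.30, 0.000438). Adam12 was higher in WT cells, with 15.3 and 20.3 CPM on stiff gels against 0.274 and 0.824 in Cav1KO stiff libraries (limma adjusted p = 4.28e-06). Adam23 held at most 2 reads in each WT library and had 22.6 to 79.3 CPM in the Cav1KO libraries.

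Of 14 MMP regulators 10 were tested, with 2 higher and 4 lower on stiff gels in WT and 1 higher and 6 lower in Cav1KO cells, against 22.1% higher and 26.3% lower of all genes in WT and 27.9% and 28.2% in Cav1KO cells. Reck, the gene of a membrane-anchored MMP inhibitor, was lower on stiff gels in WT (-1.43, limma adjusted p = 0.000459) and Cav1KO cells (-1.07, 0.00149). Thbs2 was lower on stiff gels in WT (-0.79, limma adjusted p = 0.000816) and Cav1KO cells (-1.63, 2.17e-05). Lrp1, which encodes a receptor that clears MMPs and plasminogen activators, had 189 to 226 CPM in the 4 WT libraries, 173 and 112 in Cav1KO stiff, and 465 and 448 in Cav1KO soft libraries. All 14 genes of the AP-1 and ETS list were tested, with 4 higher and 8 lower on stiff gels in WT and 3 higher and 7 lower in Cav1KO cells, against the same shares of all genes. Fos was lower on stiff gels in WT (-1.11, limma adjusted p = 0.000483) and Cav1KO cells (-1.32, 0.000140), and so was Fosb (-1.41 and -1.82). Fosl1 went the other way, with a mean of 71.6 CPM over the 8 libraries against 7.91 for Fos. It was higher on stiff gels in WT (0.65, limma adjusted p = 0.00163) and Cav1KO cells (0.57, 0.00256). Fosl1 was named after its values were seen and not taken through the alternatives. Between genotypes neither Fos nor Fosb passed the threshold (adjusted p from 0.0654 to 0.846), whereas Junb was lower in Cav1KO cells on stiff (-1.25, limma adjusted p = 2.39e-06) and soft gels (-1.28, 1.95e-06). Jun, named after its values were seen and not taken through the alternatives, was higher there on stiff (0.34, limma adjusted p = 0.00630) and soft gels (0.65, 0.000172). Of the 14 genes 2 were higher and 6 lower in Cav1KO cells on stiff gels (25.0% and 26.6% of all genes). On soft gels 3 were higher and 6 lower (24.1% and 29.9% of all genes). Etv5 was higher on stiff gels in WT cells (0.69, limma adjusted p = 0.00822), a call lost without the first WT stiff library (0.63).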
